A study of Mus musculus with 22 samples.

Results

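Monocyte-marked cells were examined among sorted mouse fetal liver progenitors with and without Mettl3. A cell counted as monocyte-marked where its counts of Csf1r, F13a1, Ccr2, Lyz2 and Ly86 summed to 3 or more and its counts of the MHC class II genes H2-Aa, H2-Ab1 and H2-Eb1 summed to under 2. The rule took 983 of 15678 kept cells, and the 14695 others served as the comparison. The members were chosen by the measured counts of these 8 genes, so in the single cells values of the 8 are given as a description with no test; bulk RNA and H3K4me3 come from other samples, and there they were tested.

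All animals were embryos at E14.5. KO embryos were Vav-Cre Mettl3fl/fl, so that a Cre recombinase driven in blood cells deleted the floxed gene, and WT embryos were Mettl3fl/fl without Vav-Cre. Both groups therefore carried the floxed allele, and the WT group carried no Cre. Cells were sorted as LSK (negative for lineage markers, positive for Sca-1 and c-Kit), which takes in stem cells and multipotent progenitors of blood. There were 2 KO and 2 WT single-cell libraries, 3 KO and 3 WT bulk RNA libraries, and 2 KO and 2 WT libraries of H3K4me3, a histone mark of active promoters, by CUT&RUN. The labels call the libraries biological replicates.

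Monocytes arise from multipotent progenitors by way of cells that switch on receptors, lysosomal enzymes and transcription factors of the lineage before they leave the progenitor state. Csf1r is the receptor for the growth factor CSF1, Ccr2 the chemokine receptor that draws monocytes out of the marrow, Lyz2 a bacteria-lysing enzyme, F13a1 a clotting factor subunit made by monocytes, and Ly86 (MD-1) the partner of the receptor Cd180. Spi1 (PU.1), Irf8 and Klf4 are transcription factors of the lineage. Mettl3 is the catalytic subunit of the complex that writes N6-methyladenosine into messenger RNA.

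Some properties of the libraries touch every single-cell result. Kept cells numbered 4920 and 3884 in KO and 2731 and 4143 in WT, with 711291 and 1439272 counts in gated KO cells and 906951 and 1005355 in gated WT cells. Both KO libraries were female (Xist 3075 and 3539 counts, Y-linked genes 0) and both WT libraries male (Xist 0, Y-linked genes 676 and 836 counts), and sex and genotype therefore cannot be told apart in the single-cell data. Mettl3 had 28 and 74 counts in gated KO cells and 31 and 31 in gated WT cells, and was not lower in the libraries labelled KO. Which part of the transcript these reads cover is not given in the sources used here, so Mettl3 does not check the genotype labels of the single cells, and KO and WT below are the libraries as labelled. In bulk LSK RNA, Mettl3 had 4.13, 6.31 and 5.52 CPM (TMM-scaled counts per 1e6) in KO and 43.0, 43.0 and 33.2 CPM in WT. Of the cell barcodes, 8 were shared by 2 libraries, and 2 gated cells carried one.

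Monocyte-marked cells made up a smaller share of LSK cells in both KO libraries than in either WT library. The share was 3.72% (95% exact interval 3.21 to 4.29) and 5.36% (4.67 to 6.11) in KO, and 9.63% (8.55 to 10.8) and 7.94% (7.14 to 8.81) in WT. The groups did not overlap. Means were 4.54% ± 1.16 in KO and 8.79% ± 1.19 in WT (SD, n = 2 each), a ratio of 0.516, and the two-sided exact permutation test gave p = 0.333, the smallest that 2 against 2 libraries allow. The intervals cover counting error only.

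Depth moved with genotype among the gated cells. Gated KO cells had medians of 3049 and 5491.5 counts, against 2610 and 2517 in gated WT cells, while other cells had 1444 and 2043 in KO and 2052 and 1512.5 in WT. When every cell was thinned to 1000 counts, which left out 847 and 685 KO cells and 268 and 752 WT cells, the share was 0.81% and 0.875% in KO and 4.02% and 3.66% in WT, a ratio of 0.220. Among cells of 1500 to 4000 counts it was 4.70% and 3.70% in KO and 10.4% and 9.54% in WT. Both settings kept the KO libraries below the WT libraries.

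**Figure D1:**
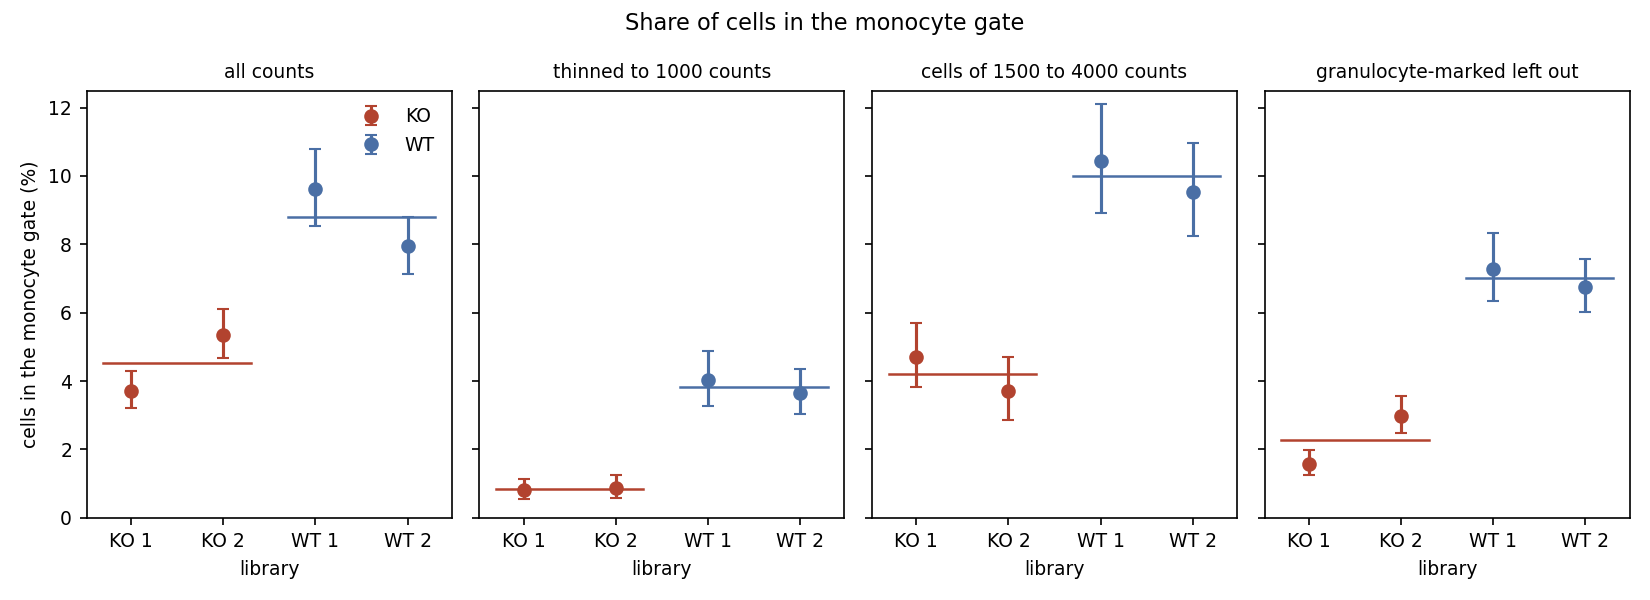
Share of kept cells in the monocyte gate (%, y axis) in each single-cell library (x axis) under 4 settings, with exact 95% intervals as bars and group means as lines. Both KO points lie below both WT points in each panel, at 3.72% and 5.36% against 9.63% and 7.94% with all counts.

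Lyz2 gave more counts to the gate than any other marker, at 46.7% and 54.9% of the marker counts in gated KO cells and 52.7% and 45.8% in gated WT cells. A count of Lyz2 was found in 70.5% and 82.7% of gated KO cells and in 70.0% and 72.3% of gated WT cells. Background for this share came from erythroid-marked cells outside the gate, which should lack the gene. It was 8.38% and 13.2% in KO (medians of 3527 and 4526.5 counts) and 10.4% and 6.0% in WT (4949.5 and 2807.5 counts). The erythroid-marked cells that passed the gate, 3 and 1 in KO and 3 and 0 in WT, were left out, which can lower this background. Reads of Lyz2 can be shared with its near-identical neighbour Lyz1, so its level is uncertain. Cells that passed on Lyz2 alone were 13.7% and 26.4% of the gate in KO and 10.3% and 9.12% in WT. Just inside the threshold, at a sum of 3, lay 83 and 89 KO cells and 87 and 119 WT cells, and just outside, at a sum of 2, lay 270 and 219 KO cells and 172 and 263 WT cells. The class II limit removed 1 and 3 KO cells and 33 and 8 WT cells.

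The gate genes themselves are given per library total, as a description. Lyz2 had 634 and 414 CPM in gated KO cells and 1039 and 883 CPM in gated WT cells. Ly86 had 207 and 112 CPM in gated KO cells and 394 and 404 CPM in gated WT cells. Ccr2 had 267 and 110 CPM in gated KO cells and 315 and 370 CPM in gated WT cells. For these genes both KO libraries lay below both WT libraries. Csf1r had 121 and 88.9 CPM in gated KO cells and 121 and 154 CPM in gated WT cells. F13a1 had 128 and 29.9 CPM in gated KO cells and 101 and 118 CPM in gated WT cells, so that its groups overlapped.

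Compared with all other cells, and as a description since the gate chose them, genes of monocytes and of granulocyte progenitors were higher and genes of red cells and stem cells lower. Of 5876 genes at 20 CPM or more, 953 (16.2%) were higher in gated cells of all 4 libraries and 725 (12.3%) lower. All 8 monocyte regulators at that level were higher (median log2 ratio 1.31, against 0.01 over all genes), and so were 22 of 24 further monocyte genes (1.38). Primary granule and granulocyte progenitor genes were higher in 8 of 11 (0.95). All 10 erythroid genes (-1.83) and 7 of 8 stem cell genes (-0.75) were lower.

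Levels in these 2 populations are counts per library total. Ifitm6, of the interferon-induced transmembrane family, had 92.8 and 64.6 CPM in gated KO cells and 128 and 125 CPM in gated WT cells. Other cells held 18.5 and 8.73 CPM of it in KO and 13.4 and 16.6 CPM in WT. Irf8 had 117 and 92.4 CPM in gated KO cells and 141 and 149 CPM in gated WT cells, with log2 ratios over other cells of 1.06 to 1.43. Ctsc (cathepsin C, which activates granule proteases), Pld4 (an endolysosomal nuclease), Ms4a6c, Clec12a (an inhibitory lectin of myeloid cells), Psap (the saposin precursor) and the DNA-binding inhibitors Id2 and Id3 were also among the 20 genes ranked highest by the lowest of their 4 library ratios. Camp, a neutrophil granule peptide, was among them too, but it had 151 and 0 counts in gated KO cells and 294 and 0 in gated WT cells, so its ratio in replicate 2 came from the added 0.5 counts. Prtn3, the granule protease proteinase 3, also ranked there, with log2 ratios of 0.729 to 1.31. On the low side stood the haemoglobin genes Hba-a1, Hbb-bs and Hbb-bt, the carbonic anhydrase gene Car2 and the biliverdin reductase gene Blvrb.

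**Figure D2:**
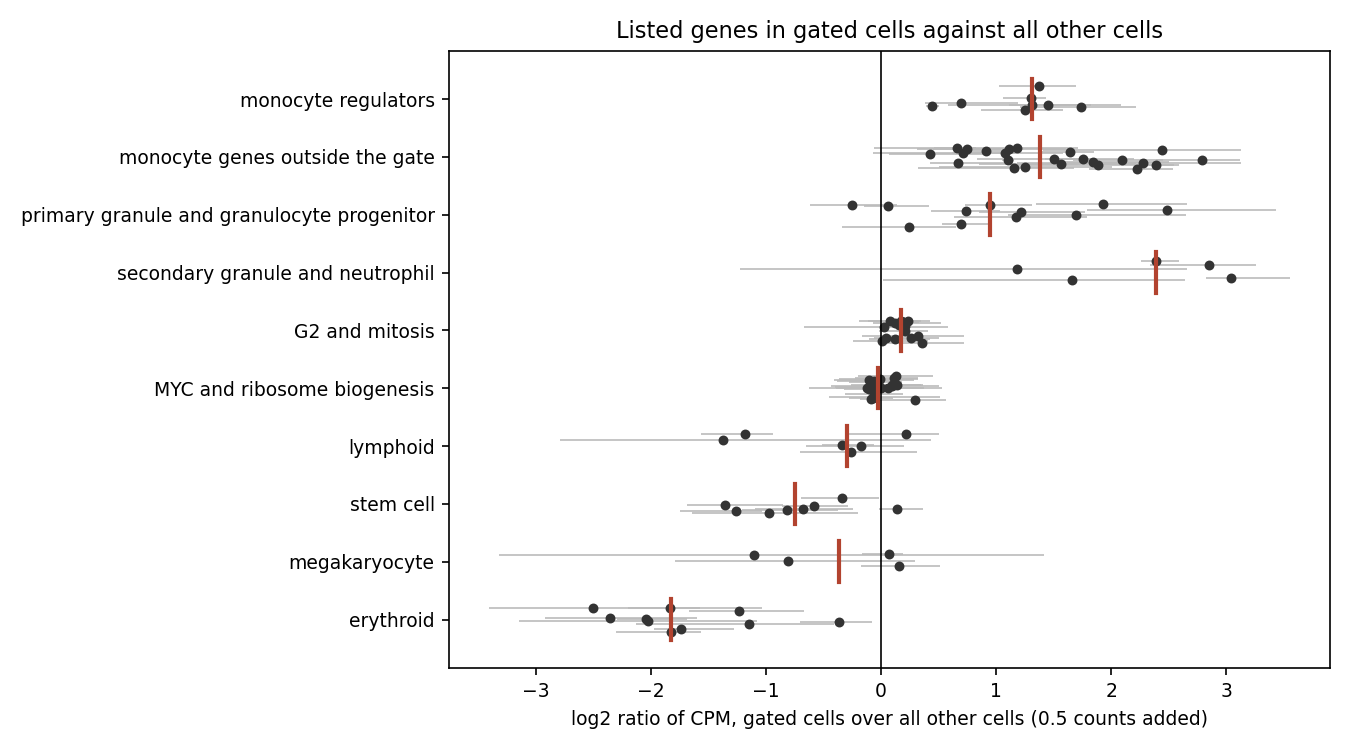
Log2 ratio of CPM in gated cells over all other cells (x axis, 0.5 counts added) for genes of 10 lists at 20 CPM or more (y axis). Points are means over the 4 libraries, grey lines the lowest to the highest library and red bars list medians. The medians run from -1.83 for erythroid genes to 2.39 for neutrophil genes, some of which have wide grey lines where libraries differed. The 2.39 is the value of Cybb, 1 of the 5 neutrophil genes shown, which is also on the monocyte list.

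Part of the gate also carried granulocyte genes. Cells with 3 or more counts of Elane, Prtn3, Ctsg and Ms4a3 were 57.4% and 44.2% of gated KO cells and 24.3% and 14.9% of gated WT cells, against 18.8% and 8.11% of other KO cells and 7.09% and 2.65% of other WT cells. After thinning to 1000 counts the shares were 6.06% (2 of 33 cells) and 0% (0 of 28) in gated KO cells and 8.08% and 5.65% in gated WT cells, so the order of KO and WT did not hold at equal depth. Some neutrophil genes were high in replicate 1 of both genotypes. S100a8, a calcium-binding protein of neutrophils, had 1734 and 68 counts in gated KO cells and 1577 and 175 in gated WT cells, and its partner S100a9 had 839 and 6 in gated KO cells and 527 and 19 in gated WT cells. Others did not share this: Ngp, a granule protein, had 54 and 0 counts in gated KO cells and 0 and 0 in gated WT cells, and Cxcr2, a chemokine receptor, 7 and 13 in gated KO cells and 6 and 15 in gated WT cells. Whether depth, granulocyte-marked cells or sex had a part in the KO and WT differences below was not tested beyond the settings given. Given these genes, the cells are called monocyte-marked here and not a cell type.

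Within the gate, the genes called higher in KO included 2 interferon-stimulated genes and 2 genes of the m6A machinery. Those called lower included 2 monocyte regulators and 2 further monocyte genes. Counts were summed per library and tested over 7721 genes with edgeR's quasi-likelihood test and Benjamini-Hochberg adjustment. At an adjusted p under 0.05, 81 genes (1.05%) were called, 36 higher (0.466%) and 45 lower (0.583%) in KO, and 6 of them lie on X or Y. The filter on low counts was passed only through the KO libraries by 2 of the 36 and only through the WT libraries by 12 of the 45. With library size alone as the scaling, the median log2 fold change over all genes was 0.15 and 101 genes were called, 67 higher and 34 lower.

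Rtp4, an interferon-induced chaperone of receptors, had 151 and 109 CPM in gated KO cells and 18.1 and 14.9 CPM in gated WT cells. Its log2 fold change was 2.97 (SE 0.29, adjusted p 0.00954), and it remained called among cells of 1500 to 4000 counts (0.000365) and without granulocyte-marked cells (0.00153). Lgals3bp, a secreted galectin-binding protein induced by interferon, had 43.9 and 42.5 CPM in KO and 9.03 and 10.9 CPM in WT (log2 2.08, SE 0.35, adjusted p 0.0367; 0.0558 among cells of 1500 to 4000 counts and 0.0378 without granulocyte-marked cells). They were the 2 interferon-stimulated genes called. Of 45 listed, 31 passed the filter on low counts, 7 of them only through the KO libraries, so no median over those that passed is given.

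Among the genes of the m6A machinery, Wtap, which holds the writer complex on its targets, had 194 and 178 CPM in gated KO cells and 78.7 and 63.7 CPM in gated WT cells (log2 1.39, SE 0.21, adjusted p 0.0306). Zc3h13, another subunit, had 249 and 272 CPM in KO and 129 and 132 CPM in WT (1.00, SE 0.19, adjusted p 0.0456). These 2 were called among the 18 of 20 listed genes that passed the filter, with a median of 0.61, against -0.01 over all genes. Mettl16, a separate m6A writer, was called too (1.19, adjusted p 0.0377). Among cells of 1500 to 4000 counts none of 10 tested m6A genes was called and their median was 0.22, with adjusted p 0.0684 for Wtap and 0.58 for Zc3h13. Without granulocyte-marked cells none of 16 was called (median 0.46).

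Other genes with the largest rises were Sco2 of cytochrome oxidase assembly (1.88), Rpp38 of ribonuclease P (1.85), Phax of small nuclear RNA export (1.69), Fkbp11 (1.77), Nif3l1 (1.69), Fam212a (1.77), 1700021F05Rik (1.61) and the mitochondrial ribosomal RNA methylase Mrm3 (1.59). In each of these 8 both KO libraries lay above both WT libraries, as the rule for naming them required; KO and WT libraries did not overlap for 50.2% of all genes tested. Of the 20 listed MYC and ribosome biogenesis genes none was called, though all 20 lay above 0 (median 0.56). Xist and Tsix, its antisense partner whose reads cannot be told apart from it without strand, were at 0 in WT and led the list, as X-linked genes of the female libraries.

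Among genes lower in KO, Id2 (ENSMUSG00000020644), which blocks basic helix-loop-helix factors and is needed for dendritic cells, had 127 and 74.7 CPM in gated KO cells and 475 and 355 CPM in gated WT cells. Its log2 fold change was -2.07 (SE 0.28, adjusted p 0.0254). Irf5, a transcription factor of inflammatory cytokine genes, had 17.0 and 19.3 CPM in KO and 52.9 and 68.7 CPM in WT (-1.72, SE 0.30, adjusted p 0.0401). They were the 2 called of the 9 among 12 listed monocyte regulators that passed the filter. Among cells of 1500 to 4000 counts the adjusted p was 0.0374 for Id2 and 0.0574 for Irf5, and without granulocyte-marked cells 0.139 and 0.127 in that order. Irf8 (-0.65, adjusted p 0.172), Spi1 (-0.39, 0.559) and Klf4 (-2.64, 0.149) were not called by the same test.

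Tyrobp, the adaptor that carries signals of activating myeloid receptors, had 420 and 316 CPM in gated KO cells and 1121 and 894 CPM in gated WT cells (log2 -1.46, SE 0.24, adjusted p 0.0367). Cst3, a secreted protease inhibitor abundant in mononuclear phagocytes, had 707 and 723 CPM in KO and 1712 and 1730 CPM in WT (-1.27, SE 0.22, adjusted p 0.0405). These were the 2 called of the 25 among 30 listed monocyte genes outside the gate that passed the filter; the median of the 25 was -0.78, and 1 of them passed only through the WT libraries. Neither was called among cells of 1500 to 4000 counts (adjusted p 0.134 for Tyrobp and 0.0855 for Cst3) or without granulocyte-marked cells (0.139 and 0.112 in that order). Immediate early and heat shock genes, which handling can induce, lay lower as well, with a median of -1.22 over 13 of 14 listed genes, 9 below 0 and none called. Their summed level was 2739 and 1936 CPM in gated KO cells and 2911 and 1468 CPM in gated WT cells, which overlap. Fos, a member of that list, had 170 and 9.73 CPM in gated KO cells and 547 and 31.8 CPM in gated WT cells, high in replicate 1 of both genotypes. Their part in the monocyte gene difference was not tested. Of 18 listed dendritic cell genes 6 passed the filter, 3 of them only through the WT libraries, so no count or median over the 6 is given. None of the 7 erythroid, 8 lymphoid or 13 primary granule genes that passed the filter was called, where 1.05% of all genes were. Of these, 2 lymphoid genes (Ccr9 and Ly6d) passed only through the WT libraries and 1 primary granule gene (Gfi1) only through the KO libraries.

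Some genes were at or near 0 in KO. Trem2, a lipid-sensing receptor of macrophages, had 0 and 0 counts in gated KO cells and 37 and 23 in gated WT cells, at least 22.5-fold lower against a floor of 3 counts over the group. Cd209a, a lectin of monocyte-derived dendritic cells, had 0 and 0 counts in KO and 15 and 20 in WT, at least 13.1-fold lower. Siglech, of plasmacytoid dendritic cells, had 2 and 2 counts in KO and 38 and 33 in WT. Cd180, the receptor that Ly86 accompanies, had 2 and 4 counts in KO and 16 and 19 in WT. Cd209a, Siglech and Cd180 passed the filter only through the WT libraries, so no test of them is given. Trem2, with 0 and 0 counts in KO, can also have passed only through the WT libraries, and its fall is likewise a description. Rnase6, Klrd1, Hacd4, Ccng2 and Hist1h2bm were also among the largest autosomal falls. Through which libraries these passed the filter is not given here, so they too are named as a description. The Y-linked Eif2s3y and Ddx3y were at 0 in the female KO libraries.

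**Figure D3:**
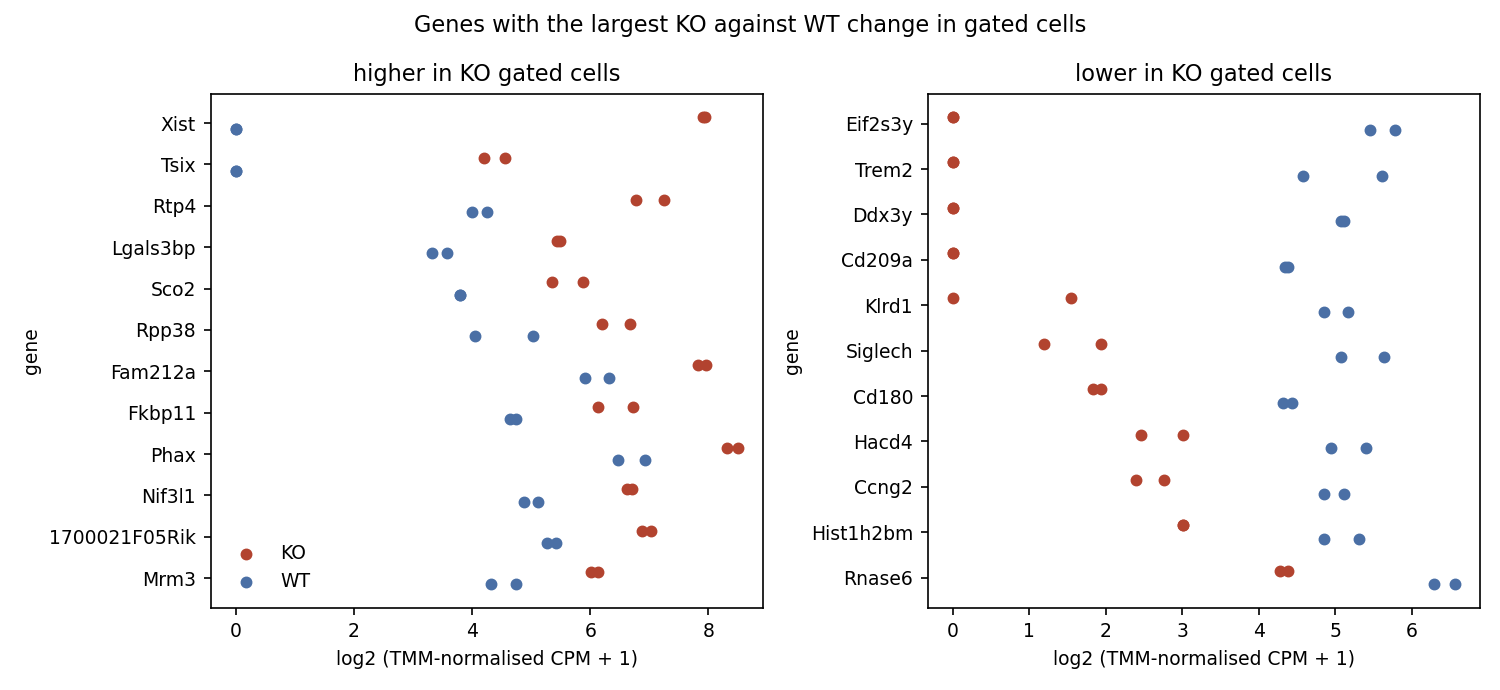
Level of the 12 genes with the largest rise (left) and 11 of the 12 with the largest fall (right) in gated cells, as log2 of TMM-normalised CPM plus 1 (x axis), KO above WT for each gene, 1 point per library. KO and WT points do not overlap for any of these genes, as the rule for naming them required; Rtp4 has 151 and 109 CPM in KO and 18.1 and 14.9 CPM in WT.

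The autosomal calls had the same direction in other settings, and fewer passed. Those settings reuse cells of the same libraries that chose the genes, so a kept direction is no independent support. All 34 genes called higher and the 34 genes called lower that could be tested lay on the same side among cells of 1500 to 4000 counts, where 15 and 11 were called. Without granulocyte-marked cells 4 and 5 were called, and with the gate applied to thinned cells none was. That last setting chose 33 and 28 KO cells and 99 and 124 WT cells after thinning to 1000 counts. Their full counts were then summed and tested, so it is not a test at equal depth. The count of 81 genes changed to 315 without KO 1, 260 without KO 2, 16 without WT 1 and 369 without WT 2. In bulk LSK RNA, where 21.6% of 14405 genes were called higher and 22.6% lower, all 34 genes higher in gated cells were also called higher and 36 of the 41 lower genes were also called lower. The shared genes were 1.09% and 1.11% of the bulk calls in the same direction. Of the 45 genes called lower in gated cells, 12 passed the filter only through the WT libraries, and the bulk match was not split by this.

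In the 14695 other cells the same test called 1 of 13184 genes (0.00758%), Xist, with 1730 at an unadjusted p under 0.05, and DESeq2 called 229. Rtp4 had 140 and 138 CPM in other KO cells and 11.6 and 20.5 CPM in other WT cells (log2 3.10, adjusted p 0.110). A gene called in gated cells and not in the others is not thereby shown to differ between them. All 34 autosomal genes called higher in gated cells lay higher in other KO cells too. Of the 41 called lower, the 39 that could be tested in other cells all lay lower there. The difference between gated and other cells, tested below, was called for 3 and 9 of these genes. Of 19 m6A genes tested in other cells, 17 lay above 0 (median 0.45).

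The difference itself was tested in 1 fit over gated and other cells with each library as its own block. Of 12127 genes, 101 (0.833%) were called, 13 (0.107%) with a higher and 88 (0.726%) with a lower KO effect in gated cells, but 3 of the 101 are gate genes, whose values the rule used and whose test is not read. Outside the gate genes 98 were called, 13 higher and 85 lower; the other counts of this comparison were not split in this way. Monocyte genes outside the gate made up part of the lower ones: 8 of the 25 tested of 30 listed were called, all lower, with a median of -0.56 against -0.02 over all genes. The lower ones also held 12 genes with names that begin with Rpl or Rps and 6 mitochondrially encoded genes. Among them too were 3 of 43 interferon-stimulated genes and 2 of 14 immediate early and heat shock genes tested. With library size alone 49 genes were called, 20 higher and 29 lower. With the replicate number in place of the library none was called (523 at an unadjusted p under 0.05), and without granulocyte-marked cells 15 were. Leaving out 1 library gave 68 without KO 1, 22 without KO 2, 37 without WT 1 and 148 without WT 2.

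Tyrobp had 248 and 241 CPM in other KO cells and 333 and 284 CPM in other WT cells. Its KO effect was -1.46 in gated and -0.33 in other cells, a difference of -1.09 (adjusted p 1.75e-14). Ms4a6c, an MS4A membrane protein, had 226 and 138 CPM in gated KO cells and 350 and 390 CPM in gated WT cells, and 87.0 and 33.1 CPM in other KO cells against 36.9 and 43.1 CPM in other WT cells, a difference of -1.45 (adjusted p 4.07e-13). Fcer1g, an adaptor of Fc receptors, differed by -0.96 (1.18e-06) and Cst3 by -0.56 (7.32e-05). Ly6c2, a surface marker of classical monocytes, differed by -1.67 (adjusted p 0.00267), with 49.5 and 5.15 CPM in gated KO cells and 103 and 34.8 CPM in gated WT cells, which overlap.

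**Figure D4:**
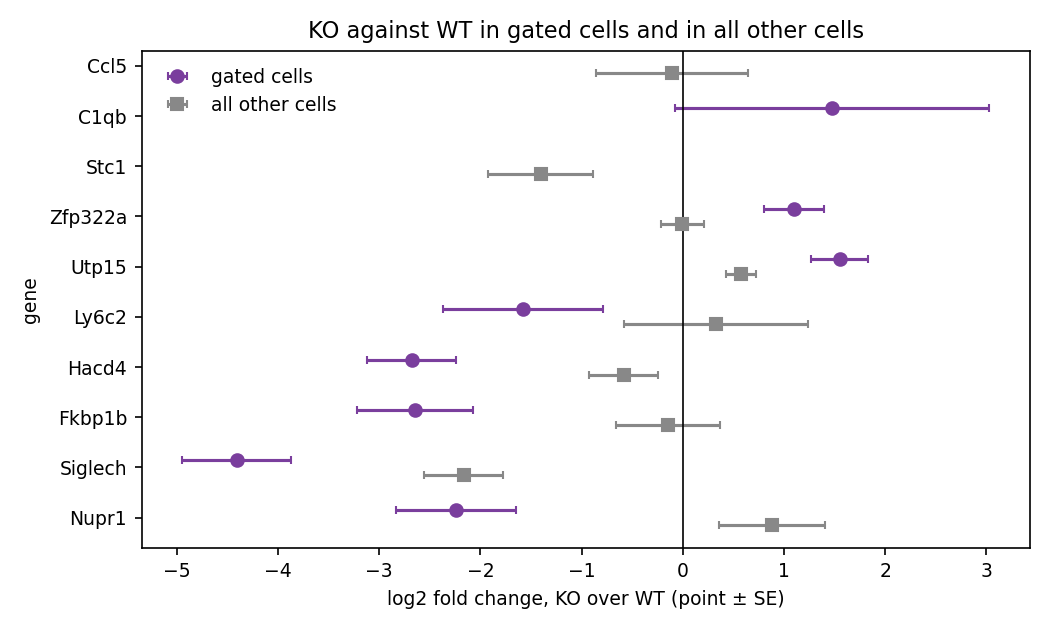
KO over WT log2 fold change with SE (x axis) in gated cells (circles) and in all other cells (squares) for the 5 genes with the largest higher and the 5 with the largest lower difference. A gene too low to be tested in 1 population has 1 point. Siglech, which passed the filter within gated cells only through the WT libraries, is shown but not read. Nupr1, at -2.24 in gated cells and 0.88 in other cells, also passed there only through the WT libraries and is likewise not read.

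Bulk LSK RNA asked how the marker genes stood in the whole sorted fraction, where fewer cells of a type and less RNA per cell cannot be told apart. Of 14405 genes, 6367 (44.2%) were called, 3114 higher and 3253 lower; 7018 were called with the replicate number as a block, and library size alone gave 2463 and 4143. Ly86 had 18.0, 14.9 and 17.9 CPM in KO and 36.9, 34.9 and 26.0 CPM in WT, which did not overlap (log2 -0.95, adjusted p 0.000774). Ccr2 had 61.5, 46.2 and 52.7 CPM in KO and 110, 88.9 and 61.1 CPM in WT (-0.70, adjusted p 0.015). Csf1r moved the other way, with 216, 202 and 204 CPM in KO and 185, 157 and 130 CPM in WT (0.40, adjusted p 0.0187, and 0.0766 with library size alone). Lyz2 had 79.9, 103 and 95.1 CPM in KO and 123, 115 and 98.0 CPM in WT (-0.28, adjusted p 0.0687, and 0.0327 with the replicate number as a block). F13a1 was at 74.1, 49.5 and 57.5 CPM in KO and 76.5, 45.7 and 36.9 CPM in WT (0.18, adjusted p 0.575).

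Monocyte regulators were called in both directions in bulk. Cebpb, a C/EBP factor of myeloid cells under stress, had 73.3, 67.3 and 69.9 CPM in KO and 24.0, 22.3 and 28.1 CPM in WT (log2 1.51, adjusted p 2.35e-05). Cebpa (0.70), Spi1 (0.41) and Tifab (0.29, adjusted p 0.0299, and 0.139 with library size alone) were also called higher. Maf, a transcription factor of macrophages, was called lower (-1.46), as were Id2 (-1.55), Klf4 (-1.32, adjusted p 0.0269, and 0.053 with DESeq2) and Irf5 (-0.71). Irf8 (-0.18, adjusted p 0.181), Nr4a1 (-0.60, 0.215) and Zeb2 (0.34, 0.0619, and 0.00625 with the replicate block) were not called. The 30 listed monocyte genes outside the gate also went both ways in bulk, with 9 called higher and 10 lower. Their median was 0.12, against -0.02 over all genes, of which 21.6% were called higher and 22.6% lower. Cst3 was called lower (-0.43) and Ms4a6c higher (0.50, adjusted p 0.0443). Tyrobp (-0.19, 0.0577), Fcer1g (0.14, 0.206) and Ly6c2 (0.57, 0.0768) were not called.

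H3K4me3 at the strongest window of each gene start showed the marker genes apart from each other as well. Of 51039 genes, 4024 (7.88%) were called, 1644 higher (3.22%) and 2380 lower (4.66%), with a median over all genes of -0.15. Under library size alone that median was -0.40 and the calls were 1305 higher and 3309 lower, and RLE factors gave -0.04 with 1999 and 1993. At Ly86 (chromosome 13, start 37345389, GRCm38.p5) the window held 8.26 and 6.99 CPM in KO and 18.7 and 12.1 CPM in WT (log2 -1.02, adjusted p 2.24e-06). At Ccr2 (chromosome 9, 124105626) it held 16.8 and 13.7 CPM in KO and 32.2 and 23.4 CPM in WT (-0.87, adjusted p 5.63e-05). Lyz2 (chromosome 10, 117282321) carried more of the mark, with 32.8 and 34.8 CPM in KO and 23.1 and 22.2 CPM in WT (0.58, adjusted p 0.0223), and Csf1r did too (0.69, adjusted p 0.0102). F13a1 (chromosome 13, 37049187) had 21.99 and 23.7 CPM in KO and 25.0 and 22.6 CPM in WT (-0.06, adjusted p 0.788). DESeq2 did not call Ly86 (0.0741), Ccr2 (0.0933) or Lyz2 (0.0622). Of the 12 regulators Cebpb was the one called (0.78, adjusted p 0.019).

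**Figure D5:**
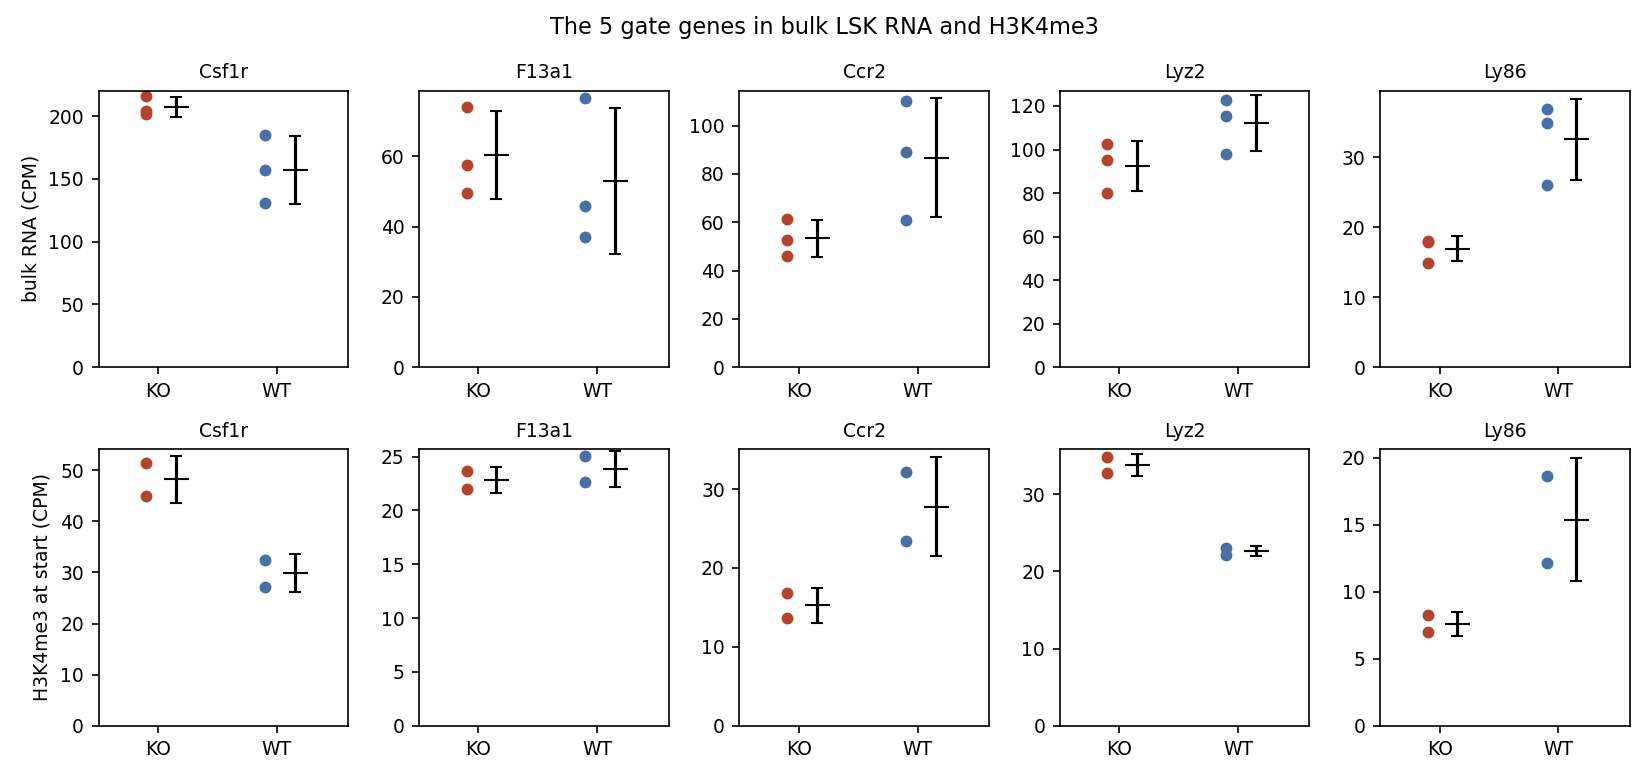
The 5 gate genes in bulk LSK RNA (top, CPM) and in H3K4me3 at the gene start (bottom, CPM), KO left of WT; points are libraries and bars mean ± SD (n = 3 in bulk, n = 2 in H3K4me3). Ly86 and Ccr2 are lower in KO in both rows, and Csf1r is higher in both.

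The promoters of Lyz2 and Ly86, at which the mark moved in opposite directions, are given as RefSeq windows of GRCm38.p6 that run past each gene's start, at chr10:117282223-117282522 (minus strand) for Lyz2 and chr13:37345095-37345394 (plus strand) for Ly86. Both strands were searched for GAGGAA, the core bound by PU.1, and TTGCNNAA, the motif of C/EBP factors, and a match would stand in capitals.
Lyz2: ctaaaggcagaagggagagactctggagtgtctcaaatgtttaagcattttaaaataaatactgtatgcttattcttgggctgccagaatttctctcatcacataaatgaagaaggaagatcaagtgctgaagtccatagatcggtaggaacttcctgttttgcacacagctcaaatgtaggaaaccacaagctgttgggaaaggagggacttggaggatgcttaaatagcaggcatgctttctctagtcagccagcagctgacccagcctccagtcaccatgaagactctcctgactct
Ly86: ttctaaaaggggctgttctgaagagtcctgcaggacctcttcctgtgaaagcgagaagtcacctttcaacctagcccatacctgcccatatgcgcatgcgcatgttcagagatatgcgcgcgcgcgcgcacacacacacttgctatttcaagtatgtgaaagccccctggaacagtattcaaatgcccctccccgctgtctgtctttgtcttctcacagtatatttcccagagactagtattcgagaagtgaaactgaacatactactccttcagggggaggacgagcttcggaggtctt
Neither motif was found in these windows or in that of Ccr2. Of the 2 windows listed for F13a1, 1 held 2 matches of GAGGAA and the other held 1. Over 32851 promoter windows of this length, 28.3% held GAGGAA and 10.8% TTGCNNAA. A match or its lack describes these letters and says nothing of binding.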

How the data were processed

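Single-cell, bulk and H3K4me3 CUT&RUN values were raw counts as deposited by the authors; it is not said if single-cell counts are of unique molecules. Build GRCm38.p5 and Seurat 3.0, STAR 2.5.3a, bedtools, edgeR, Picard 2.9.0 and Bowtie2 2.2.9 are named, per the submitters' processing notes, with no role. Of 15707 deposited cells, 15678 passed a minimum of 500 counts and a limit of 20% mitochondrial counts. Doublets were not removed here. Counts were summed per library and population, and tested with edgeR 4.0.16 (quasi-likelihood, TMM scaling, low counts filtered, Benjamini-Hochberg adjustment, threshold 0.05; R 4.3.3), with DESeq2 1.42.0 as an alternative. Shares were compared by exact permutation (scipy 1.17.1). The H3K4me3 table gives a window of 3 kb per transcript start; the strongest window of a gene was used. The members and gene lists were chosen with earlier results of these data known. Named genes were the 12 largest rises and 12 largest falls among called genes whose KO and WT libraries did not overlap, up to 4 genes of each list by p, and 5 each way for the difference of effects; Ensembl identifiers and chromosomes came from the bulk and H3K4me3 tables. Bulk samples with the same number deviated together (r of 0.34, 0.119 and 0.121), although KO 2 deviated more closely with WT 3 (r of 0.276). The main bulk fit took no pairing, and the fit with the replicate number as a block was run as an alternative. On simulated data the fit within gated cells recovered 27% of 2-fold and 99% of 4-fold changes over 7439 genes, with 6 of 7239 unchanged genes called. The changed genes were drawn from the better expressed ones, with a common dispersion for all genes and no effect of replicate or sex. These rates therefore need not hold for genes at low counts or for the real libraries. Bulk libraries held 20088100 to 40641081 counts and H3K4me3 windows 11508749 to 14451593. The whole-liver RNA and J2 samples were not used here. Results for 2 genes that these rules name are not reported here.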

Additional observations from a re-analysis of the deposited data

Results flagged for a closer look

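The KO effect differed between gated and other cells for 101 genes, tested as an interaction, of which 3 are gate genes and are not read. The differences (gated minus other cells, log2) were -2.98 for Nupr1, -2.40 for Siglech, -2.35 for Fkbp1b, -2.17 for Hacd4 and -1.67 for Ly6c2, and 6.57 for Ccl5, 3.81 for C1qb, 3.50 for Stc1, 1.17 for Zfp322a and 1.06 for Utp15. Of the 98 counts of the chemokine gene Ccl5 in gated cells of KO 1, 85 came from 1 cell, and gated cells of the other libraries held 2 counts in KO 2 and 1 and 0 in WT. The complement gene C1qb had 29 and 0 counts in gated KO cells and 10 and 0 in gated WT cells, so it was present in replicate 1 of each genotype. Stc1 had 1 and 11 counts in KO and 1 and 1 in WT. Nupr1, a stress-response regulator, had 5 and 3 counts in gated KO cells and 14 and 18 in gated WT cells, spread over 4, 3, 12 and 17 cells. Siglech had 2 and 2 counts in gated KO cells and 38 and 33 in gated WT cells. Of 15 other settings, the call was lost in 12 for Siglech, Fkbp1b and Utp15, in 11 for Zfp322a and in 10 for Stc1. It was lost in 8 for Nupr1, Hacd4, Ly6c2 and C1qb, and in 4 for Ccl5. Within gated cells Siglech and Nupr1 passed the filter only through the WT libraries, so their differences are not read.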

How the results depend on the processing

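The share of gated cells was lower in KO under every setting run, by 5.79 to 3.00 percentage points and, leaving out 1 library each, by 5.09 to 3.40. In the gene tests below, 1000 counts per cell describes only how cells were chosen. The gate was applied after thinning, and the full counts of the chosen cells were summed. For the 81 genes called within gated cells, counts were 551 with no filter, 737 with the replicate block, 160 with a gate minimum of 4, 241 without Lyz2 in the gate, 1 at 1000 counts per cell, 15 without granulocyte-marked cells and 40 among cells of 1500 to 4000 counts, and 16 to 369 leaving out 1 library. For other cells (1 gene) they were 3 with library size alone, 12 with no filter, 229 with DESeq2, and 0 to 1 leaving out 1 library. For the difference of effects (101) they were 49 with library size alone, 38 with DESeq2, 0 with the replicate number in place of the sample, 23 and 52 with gate minimums of 2 and 4, 2 at 1000 counts per cell, 30 without the deepest cells, 15 without granulocyte-marked cells and 7 at 1500 to 4000 counts, and 22 to 148 leaving out 1 library. Bulk counts were 7018 with the replicate block, against 6367 without, and 4677 to 6796 leaving out 1 library, and H3K4me3 counts 802 with DESeq2, 20842 with the replicate block and 1080 to 3858 leaving out 1 library. S100a8 in gated cells ran from -4.63 (without KO 1) to 2.83 (without WT 1), and the difference for C1qb from -1.92 (without KO 1) to 5.75 (without WT 1). Differences also turned for C1qb (-0.36 at 1000 counts), Stc1 (-4.76 at 1000 counts) and Lsp1 (0.23 at 1000 counts). The cause was not tested, except that 1000 counts per cell left 2808 genes to test within gated cells. Single-cell libraries with the same number deviated together (r of 0.33 in gated cells and 0.37 in others), as did H3K4me3 libraries (0.40), but with 2 pairs they share only a number. The settings without granulocyte-marked cells, without the deepest cells for the share, and of 1500 to 4000 counts were chosen after seeing the data.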

Other observations

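The listed monocyte genes outside the gate were together higher in cells with a marker sum of 10 or more than in cells with a sum of 0, in each of the 4 libraries. Their summed level was 3518 and 2854 CPM in KO cells with a marker sum of 0, against 2650 and 2868 CPM in WT cells with that sum. At a sum of 10 or more it was 9269 and 6940 CPM in KO cells and 10506 and 10307 CPM in WT cells. These steps use 13 and 20 KO cells and 49 and 39 WT cells at the top, so the KO values there rest on few cells.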
